A study of Homo sapiens with 16 samples.

Results

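Inflammasome, gasdermin and TLR5 transcripts were examined in RT112 and SCaBER, both established human bladder cancer cell lines, after knock-down of the transcription factor FOXA1. The set holds 10 genes of the 58721 in the deposited table: the adaptor PYCARD, the sensors NLRP1 and AIM2, the caspases CASP1 and CASP4, the cytokine IL18, the gasdermins GSDMB, GSDMD and GSDME, and the flagellin receptor TLR5. It was selected on measured values, because PYCARD and TLR5 were lower under both FOXA1 siRNAs in both lines. Every value that sets FOXA1 siRNA against control siRNA for these genes is therefore a description with no test. All 10 genes passed the filter on low counts in each line. Their differences between the control siRNAs were tested. Differences between the lines under control siRNA, between the FOXA1 siRNAs, and between the lines in the change under each were tested for the genes whose values the selection did not read. For PYCARD and TLR5, on which the selection rested, only the difference between the control siRNAs was tested, and the others are given with no test.

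Each line was transfected with 1 of 4 siRNAs, at 10 nM by the labels, a dose for which the study's methods give a unit of mass: siControl.1, siControl.2, siFOXA1.1 or siFOXA1.2. Each siRNA was used in 2 replicates numbered by experiment batch, which gave 16 libraries of 3′ mRNA tags. RT112, grown in RPMI, stands for the LumP (luminal papillary) subtype, and SCaBER, grown in DMEM, for the Ba/Sq (basal/squamous) subtype, both media with 10% foetal bovine serum. Each subtype is represented by a single line, so subtype, line and medium cannot be told apart. Library totals ran from 6622473 to 7604581 counts in RT112 and from 4528513 to 6914951 in SCaBER. Levels are given in CPM (a gene's counts scaled to a fixed library total) and changes as log2 fold changes with their standard errors (SE) from edgeR's quasi-likelihood fit. A floor of 3 counts corresponds to 0.394 to 0.453 CPM in RT112 and 0.434 to 0.662 CPM in SCaBER, and covers counting error only.

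An inflammasome is a scaffold assembled in the cytosol when a sensor such as NLRP1, or AIM2 for cytosolic DNA, detects danger. The sensor recruits ASC, the protein encoded by PYCARD, which in turn recruits and activates caspase-1. Caspase-1 matures IL-18 and cleaves gasdermin D into a pore-forming fragment, while caspase-4 binds bacterial lipopolysaccharide in the cytosol and cleaves gasdermin D directly. TLR5 is the cell-surface receptor for bacterial flagellin, which the urothelium meets in urinary tract infection. On GRCh38.p14 the RefSeq gene records lie at chr16:31201486-31202760 (PYCARD), chr1:159055051-159147132 (AIM2), chr1:223109404-223143248 (TLR5), chr7:24698355-24795539 (GSDME), chr11:104942866-104968574 (CASP4), chr11:105025443-105036686 (CASP1), chr11:112143260-112164094 (IL18), chr17:5501396-5584509 (NLRP1) and chr17:39904595-39918635 (GSDMB).

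FOXA1 itself lay between 18.2 and 35.0 CPM in the 4 RT112 control libraries, between 1.32 and 3.24 CPM under siFOXA1.1 and between 9.18 and 16.0 CPM under siFOXA1.2. In SCaBER it lay between 0 and 2.43 CPM in all 8 libraries, so the depth of these libraries does not show how far it was reduced there. The luminal marker GATA3 was at 218.9 to 466.5 CPM in RT112 and 7.79 to 18.1 CPM in SCaBER. PPARG was at 38.1 to 85.7 and 12.5 to 29.1 CPM, and the uroplakin UPK2 at 91.5 to 490.6 and 2.62 to 17.8 CPM. The luminal markers KRT20 and UPK3A were at or near 0 in both lines. The basal keratin KRT14 was at 0 to 7.58 CPM in RT112 and 378.7 to 987.2 CPM in SCaBER. KRT6A was at 1.36 to 9.47 and 581.4 to 1299.1 CPM, and DSG3 at 0 and 7.07 to 28.0 CPM. KRT5 was present in both lines, at 81.7 to 234.1 and 358.9 to 694.8 CPM. TP63 overlapped between the lines, at 1.90 to 21.4 and 13.6 to 38.4 CPM. Of the leukocyte and macrophage markers reported here, PTPRC, CD163 and CD3E were at 0 in all 16 libraries, and LYZ, CD68 and CSF1R did not pass 4.69 CPM. The share of counts on mitochondrial genes was 25.7% and 28.2% in the RT112 siFOXA1.1 libraries against 18.0% to 21.2% in the other RT112 libraries, and its part in the RT112 siFOXA1.1 values below was not tested. In SCaBER it was 10.3% to 12.1% throughout.

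PYCARD and TLR5, on which the selection rested, can be set in sequence beside CASP4 and AIM2, which were higher under siFOXA1.1 in both lines but not under siFOXA1.2 in RT112. The RefSeq promoter windows of PYCARD, TLR5, CASP4 and AIM2 are shown 5′ to 3′ on the coding strand, as 300 bases that end 50 bases past the annotated start (GRCh38.p14, all on the minus strand). They lie at chr16:31202711-31203010, chr1:223143199-223143498, chr11:104968525-104968824 and chr1:159076717-159077016. The AIM2 window belongs to 1 of several transcript starts of that gene. Capitals mark the only match to a searched motif.
PYCARD: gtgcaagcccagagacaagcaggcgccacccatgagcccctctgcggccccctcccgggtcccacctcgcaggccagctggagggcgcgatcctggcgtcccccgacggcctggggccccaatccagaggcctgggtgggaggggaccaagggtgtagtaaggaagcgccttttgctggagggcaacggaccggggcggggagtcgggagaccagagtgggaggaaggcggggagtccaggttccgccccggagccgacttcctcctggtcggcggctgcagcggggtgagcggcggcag
TLR5: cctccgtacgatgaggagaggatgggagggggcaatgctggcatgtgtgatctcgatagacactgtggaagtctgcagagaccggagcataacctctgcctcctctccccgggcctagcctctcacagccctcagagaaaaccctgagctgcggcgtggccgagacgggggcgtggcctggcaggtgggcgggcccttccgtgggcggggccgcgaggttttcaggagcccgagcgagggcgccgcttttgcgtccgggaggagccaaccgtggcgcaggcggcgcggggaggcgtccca
CASP4: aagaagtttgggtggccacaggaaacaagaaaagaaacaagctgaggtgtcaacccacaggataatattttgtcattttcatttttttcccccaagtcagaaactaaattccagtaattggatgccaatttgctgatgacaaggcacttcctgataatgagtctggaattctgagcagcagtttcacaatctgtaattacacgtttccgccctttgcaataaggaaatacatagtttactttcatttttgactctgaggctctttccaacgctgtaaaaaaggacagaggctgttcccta
AIM2: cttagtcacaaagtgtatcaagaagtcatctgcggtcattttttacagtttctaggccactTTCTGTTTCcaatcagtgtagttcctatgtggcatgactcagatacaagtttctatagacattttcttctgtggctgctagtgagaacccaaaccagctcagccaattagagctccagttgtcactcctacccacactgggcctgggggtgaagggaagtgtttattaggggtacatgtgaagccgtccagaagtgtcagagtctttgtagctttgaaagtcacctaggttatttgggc

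The share of G and C was 72% in the window of PYCARD, 68.3% in TLR5, 39.7% in CASP4, 45% in AIM2 and 77% in GSDME. The share over all windows was not computed, so nothing is read from these values. The forkhead-type motif TGTTTAC, searched on both strands, was in none of these 5 windows and in 3.42% of all 35116 RefSeq windows of the same length. The STAT-type motif TTCNNNGAA was also in none and in 7.66% of all windows. The interferon-response-type motif GAAANNGAA was found in AIM2 only, on the opposite strand from position -189 counted from the start, and was in 8.11% of all windows. A match is a run of letters and not a measured binding site, and no match covers only these 300 bases. The GSDME window, at chr7:24757415-24757714 on the minus strand, lies inside the gene record, which runs to 24795539, so it is not at the outermost start. Windows of CASP1, NLRP1, GSDMB, GSDMD and IL18 were not used here.

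PYCARD was the adaptor whose transcript was lower in every FOXA1 siRNA library of both lines. In RT112 it stood at 23.3 and 32.0 CPM under siControl.1 and 23.4 and 22.8 CPM under siControl.2, against 12.2 and 7.51 CPM under siFOXA1.1 and 10.9 and 11.5 CPM under siFOXA1.2. In SCaBER it stood at 25.1 and 45.0 CPM under siControl.1 and 24.0 and 21.6 CPM under siControl.2, against 7.58 and 13.6 CPM under siFOXA1.1 and 9.72 and 13.5 CPM under siFOXA1.2. The 4 FOXA1 siRNA libraries lay below the 4 control libraries in each line, a placement that 5.3% of all tested genes shared in RT112 and 2.85% in SCaBER. In bulk RNA, fewer cells with the transcript and less of it per cell cannot be told apart. The mean level under siFOXA1.1 was 38.8% of control in RT112 and 36.6% in SCaBER, and under siFOXA1.2 it was 44.1% and 40.0%.

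The fitted log2 changes of PYCARD were -1.23 (SE 0.35) under siFOXA1.1 and -1.15 (SE 0.34) under siFOXA1.2 in RT112, and -1.39 (SE 0.40) and -1.27 (SE 0.39) in SCaBER. Within the numbered batches, its level ran from 27.4% to 52.1% of the same batch's controls in RT112 and from 30.8% to 40.8% in SCaBER. In both lines the highest PYCARD value was in siControl.1 replicate 2. When 1 library was left out, the log2 changes in RT112 ran from -1.59 to -0.95 under siFOXA1.1 and -1.27 to -1.03 under siFOXA1.2. In SCaBER they ran from -1.82 to -1.06 under siFOXA1.1 and -1.51 to -1.04 under siFOXA1.2. Every FOXA1 siRNA library lay below every control of its line in CPM, so the negative sign of these fits carries no support of its own. Reads of the antisense neighbour PYCARD-AS1 ranged from 0 to 24 counts a library and were at 0 in 8 libraries. In RT112 they were found only in controls, at 24 counts in siControl.1 replicate 2 and 12 in siControl.2 replicate 2. In SCaBER they ran from 0 to 11 counts. The tag kit marks strand, but the counting setting was automatic, so a small exchange of reads between both genes cannot be told apart.

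TLR5, a low-level transcript, was absent from the siFOXA1.1 libraries and present in part of the siFOXA1.2 libraries. Its RT112 counts were 26 and 26 under siControl.1, 7 and 15 under siControl.2, 0 and 0 under siFOXA1.1, and 11 and 0 under siFOXA1.2. Its SCaBER counts were 23 and 50 under siControl.1, 9 and 14 under siControl.2, 0 and 0 under siFOXA1.1, and 17 and 0 under siFOXA1.2. Against the floor of 3 counts per library, TLR5 under siFOXA1.1 was at least 5.88-fold lower than control in RT112 and at least 8.07-fold lower in SCaBER. Under siFOXA1.2 the means were 30.9% and 32.4% of control, but in both lines replicate 1 lay within the range of the controls and replicate 2 was at 0. In CPM, that replicate 1 stood at 73.7% of its own batch's controls in RT112 and 99.2% in SCaBER. The lower mean under siFOXA1.2 therefore rested on 1 library in each line.

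**Figure D1:**
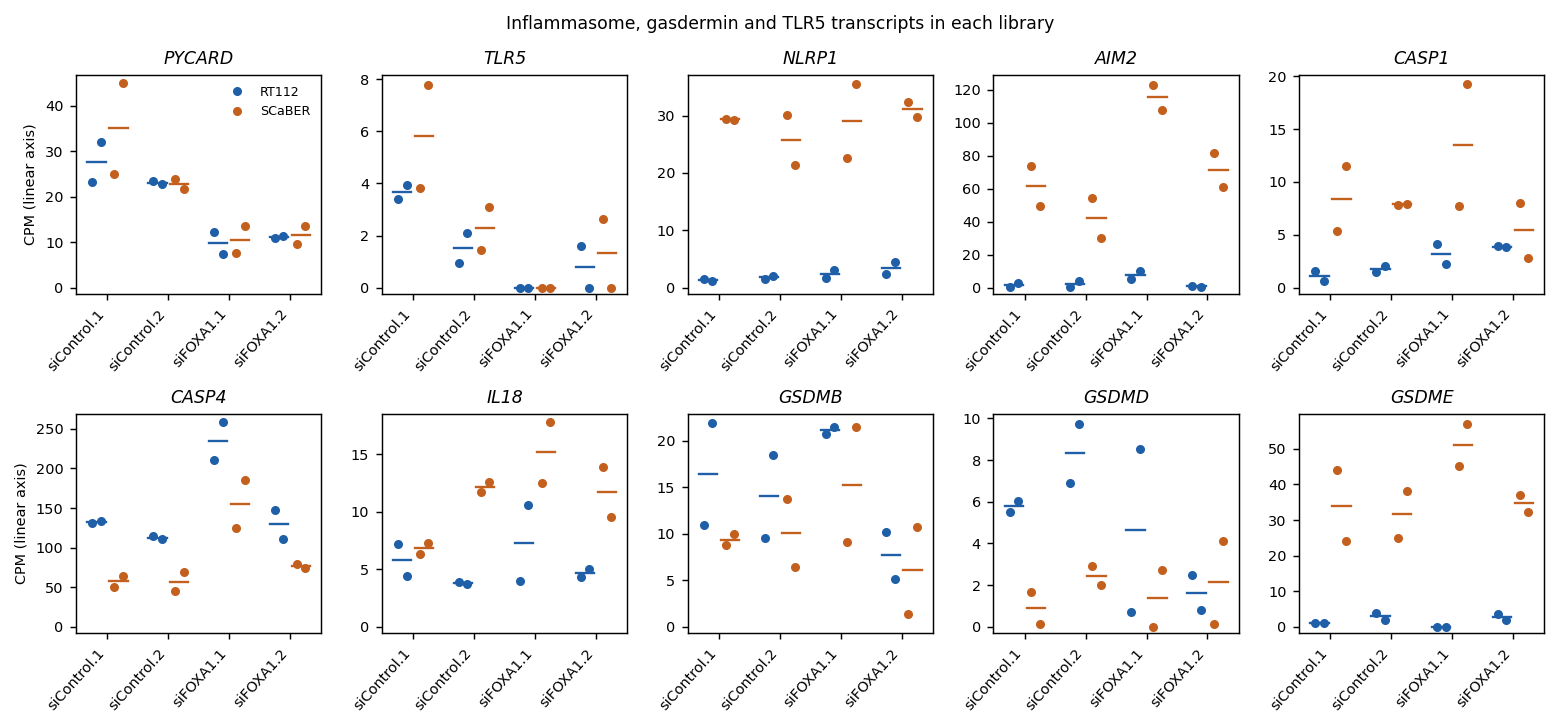
Level of each of the 10 genes in every library, in CPM on linear axes that differ between panels, by siRNA and line (blue RT112, orange SCaBER). Points are single libraries with replicate 1 left of replicate 2, and horizontal lines are means of 2. PYCARD under both FOXA1 siRNAs lies at 7.51 to 13.6 CPM in both lines, below all controls, TLR5 is at 0 in all 4 siFOXA1.1 libraries, and CASP4 is highest under siFOXA1.1 in both lines.

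The remaining genes did not follow PYCARD. CASP4, the lipopolysaccharide-binding caspase, was higher under siFOXA1.1 in both lines: 210.3 and 258.3 CPM against 110.9 to 133.9 CPM in the RT112 controls, and 124.8 and 185.4 CPM against 45.4 to 69.1 CPM in the SCaBER controls. Under siFOXA1.2 it was at 147.6 and 111.2 CPM in RT112 and at 79.4 and 74.3 CPM in SCaBER, overlapping the controls in the first line and just above them in the second. Of all tested genes, 17.6% in RT112 and 13.9% in SCaBER lay above every control under siFOXA1.1, and 7.29% did so under siFOXA1.2 in SCaBER. The siFOXA1.1 log2 changes were 1.08 (SE 0.14) for RT112 and 1.46 (SE 0.23) for SCaBER, and those of siFOXA1.2 were 0.10 (SE 0.15) and 0.44 (SE 0.23).

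AIM2, the cytosolic DNA sensor, was also higher under siFOXA1.1 than in every control library of its line, a placement with the same shares of all genes as that of CASP4. In SCaBER it lay at 30.0 to 74.0 CPM in the controls, at 123.1 and 107.7 CPM under siFOXA1.1, and at 81.6 and 60.8 CPM under siFOXA1.2. In RT112 the controls lay at 0.263, 2.57, 0.532 and 3.89 CPM, the siFOXA1.1 libraries at 5.13 and 10.3 CPM and the siFOXA1.2 libraries at 1.02 and 0.41 CPM. These rest on few counts, 2 and 4 in the replicate 1 controls and 7 and 3 under siFOXA1.2, so the sizes of the RT112 differences are uncertain. The log2 changes under siFOXA1.1 were 2.27 (SE 0.99) in RT112 and 1.21 (SE 0.27) in SCaBER, and those under siFOXA1.2 were -1.26 (SE 1.17) and 0.50 (SE 0.27). The sensor NLRP1 overlapped the controls under either siRNA in SCaBER, at 22.5 to 35.4 CPM against 21.4 to 30.0 CPM, with log2 changes of 0.10 (SE 0.30) and 0.20 (SE 0.29). In RT112 NLRP1 was low, at 8 to 33 counts a library. It stood at 1.21 to 2.08 CPM in the controls, 1.61 and 3.09 CPM under siFOXA1.1 and 2.33 and 4.51 CPM under siFOXA1.2. Only the siFOXA1.2 libraries both lay above every control, as for 8.8% of all tested genes. The log2 changes were 0.75 (SE 1.00) under siFOXA1.1 and 1.17 (SE 0.98) under siFOXA1.2.

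CASP1, which encodes the caspase that PYCARD recruits, was low in RT112, at 0.604 to 2.08 CPM in the controls, 4.10 and 2.21 CPM under siFOXA1.1 and 3.93 and 3.82 CPM under siFOXA1.2. All 4 FOXA1 siRNA libraries of RT112 thus lay above the controls, as they did for 2.65% of all tested genes. In SCaBER CASP1 was at 5.32 to 11.5 CPM in the controls, 7.76 and 19.2 CPM under siFOXA1.1 and 8.02 and 2.85 CPM under siFOXA1.2, and the groups overlapped. CASP1 shares near-identical sequence with its neighbour CARD16, so the split of tags between both is uncertain. IL18, the cytokine that caspase-1 matures, overlapped the controls under each siRNA in each line, with log2 changes of 0.78 (SE 0.64) and 0.02 (SE 0.65) in RT112 and 0.76 (SE 0.42) and 0.38 (SE 0.43) in SCaBER.

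The gasdermins, which form the membrane pores, differed from each other. GSDME, cleaved by caspase-3, was at 1.06 to 3.99 CPM in the RT112 controls, at 0 in both siFOXA1.1 libraries and at 3.50 and 1.91 CPM under siFOXA1.2. Against the floor it was at least 4.72-fold lower than control under siFOXA1.1. In SCaBER the same gene was at 24.0 to 44.1 CPM in the controls and at 45.1 and 56.98 CPM under siFOXA1.1, with a log2 change of 0.67 (SE 0.30). GSDMD, the target of caspase-1 and caspase-4, was at 5.52 to 9.73 CPM in the RT112 controls, 0.732 and 8.54 CPM under siFOXA1.1 and 2.48 and 0.82 CPM under siFOXA1.2, so only the siFOXA1.2 libraries lay apart from the controls, below them as for 11.5% of all tested genes. In SCaBER it did not pass 4.12 CPM in any library. GSDMB overlapped the controls in both lines under both siRNAs, with log2 changes of 0.62 (SE 0.40) and -0.96 (SE 0.43) in RT112 and 0.67 (SE 0.64) and -0.67 (SE 0.68) in SCaBER.

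**Figure D2:**
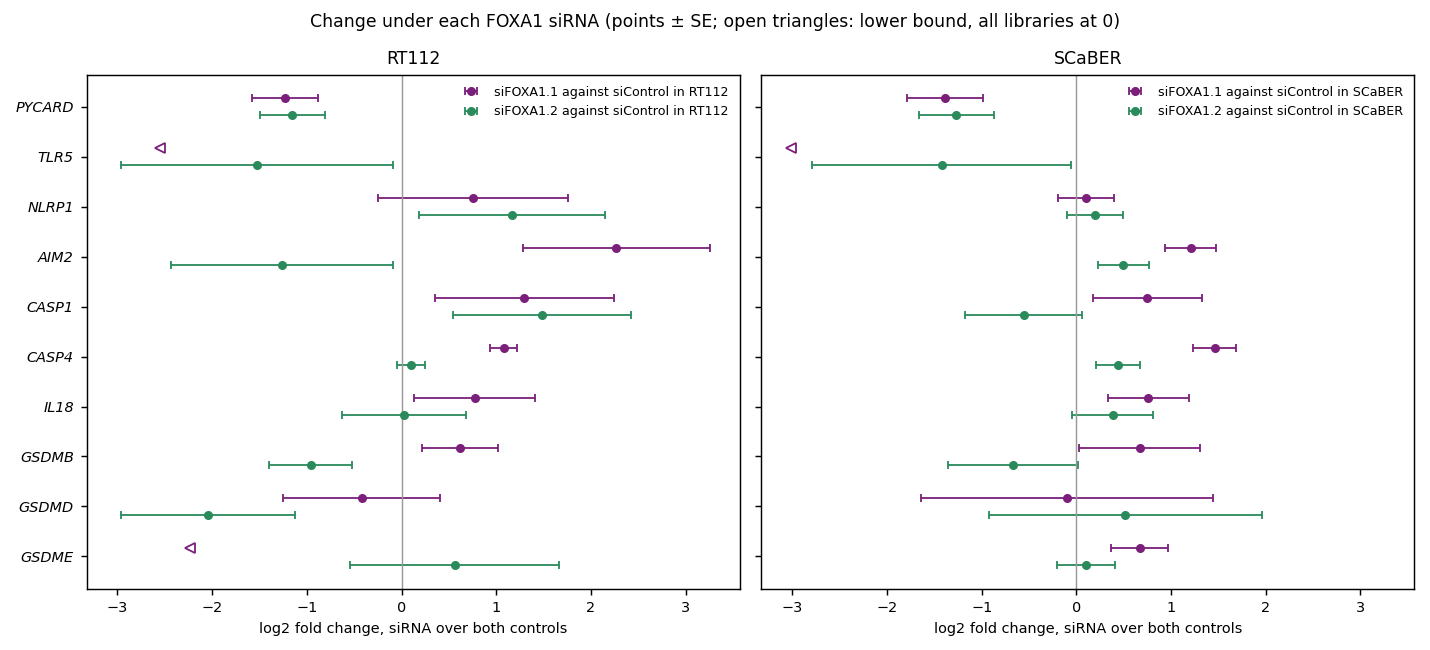
Log2 fold change of each gene under siFOXA1.1 (purple) and siFOXA1.2 (green) against the 4 control libraries of the same line, with bars of 1 SE. Open triangles mark genes whose 2 siFOXA1.1 libraries were both at 0, drawn at the lower bound of the change against 3 counts per library. PYCARD lies between -1.39 and -1.15 in all 4 comparisons, whereas CASP4 and AIM2 lie above 0 under siFOXA1.1 in both lines.

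The selection used these contrasts, so the counts of genes that passed an adjusted p of 0.05 in the fit over all genes are given only for completeness and nothing is read from them. Under siFOXA1.1, 4 of the 10 genes passed in RT112, 3 lower and 1 higher, beside 32.6% of the 11986 genes tested. In SCaBER 3 passed, 1 lower and 2 higher, beside 9.26% of 11902. Under siFOXA1.2 none was called, beside 2.04% of all genes in RT112 and 0.042% in SCaBER, with 3 and 1 members at an unadjusted p under 0.05 in edgeR. DESeq2 called 1 member under siFOXA1.2 in RT112 and none in SCaBER, and limma on TPM called none in either line. With both FOXA1 siRNAs set against both controls, edgeR called no member beside 0.108% of genes in RT112 and 0.0084% in SCaBER, with 2 and 3 at an unadjusted p under 0.05. DESeq2 called 1 in each line in this pooled comparison and limma called none. With the replicate block 3 members passed under siFOXA1.1 in RT112. The comparisons of a line share its 4 control libraries. Leaving out RT112 siFOXA1.1 replicate 2 lowered the RT112 siFOXA1.1 count to 1, leaving out either replicate 1 control or siFOXA1.1 replicate 1 lowered it to 2, and leaving out SCaBER siControl.2 replicate 2 lowered the SCaBER count to 1. Which members passed also changed from fit to fit.

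To ask whether both FOXA1 siRNAs gave the same level, siFOXA1.1 was set against siFOXA1.2. For PYCARD, chosen because it was lower under both, the log2 difference was -0.08 (SE 0.39) in RT112 and -0.12 (SE 0.44) in SCaBER, a description with no test. CASP4 was higher under siFOXA1.1 in both lines, by 0.98 (SE 0.17, adjusted p = 0.000318) in RT112 and by 1.02 (SE 0.27, adjusted p = 0.0447) in SCaBER, and the siRNAs' libraries did not overlap, a placement shared by 25.4% of all tested genes in RT112 and 21.7% in SCaBER. The RT112 call held in each of 14 alternative fits. The SCaBER call was lost in 6 of 8 fits that left out 1 library, those without siControl.1 replicate 1, siFOXA1.1 replicate 2, or any library of siControl.2 or siFOXA1.2, with adjusted p up to 0.275. It was also lost with library totals alone (adjusted p = 0.0512) and with limma on log2 TPM (0.159). Over all 14 alternatives the adjusted p in SCaBER ran from 0.00912 to 0.275.

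In RT112, GSDMB was higher under siFOXA1.1 than under siFOXA1.2, by 1.58 (SE 0.49, adjusted p = 0.0215), at 20.8 and 21.5 CPM against 10.2 and 5.19 CPM. The call was lost on log2 TPM (0.0949) and without siFOXA1.2 replicate 2 (0.187), the highest of the 14 alternatives, whose lowest was 0.00814. GSDME was lower under siFOXA1.1, at 0 in both libraries and at least 6.14-fold below siFOXA1.2 (adjusted p = 0.0202). This call was lost without siFOXA1.1 replicate 1 (0.0739), siFOXA1.1 replicate 2 (0.0746) or siFOXA1.2 replicate 1 (0.0928), and on log2 TPM (0.128), the adjusted p over the alternatives running from 0.00361 to 0.128. AIM2 differed by 3.53 (SE 1.33), with an adjusted p of 0.0563 that ran from 0.0146 to 0.260 over the alternatives and passed the threshold with DESeq2, without the filter, on log2 TPM and without siFOXA1.1 replicate 1 (0.0492). GSDMD differed by 1.63 (SE 0.99, adjusted p = 0.247), and this value was 2.51 (adjusted p = 0.0313) without siFOXA1.1 replicate 1 and -1.06 (adjusted p = 0.554) without replicate 2. The 3 calls in RT112, CASP4, GSDMB and GSDME, stood beside 28.1% of all tested genes.

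In SCaBER, CASP4 was the only member called between the FOXA1 siRNAs, beside 4.85% of all genes. GSDMB differed by 1.34 (SE 0.77, adjusted p = 0.396), CASP1 by 1.31 (SE 0.70, adjusted p = 0.350), AIM2 by 0.71 (SE 0.32, adjusted p = 0.246) and GSDME by 0.56 (SE 0.35, adjusted p = 0.440). For AIM2 and GSDME both siFOXA1.1 libraries lay above both siFOXA1.2 libraries, as for the same 21.7% of all genes. TLR5 was at 0 in all siFOXA1.1 libraries and in 1 of 2 siFOXA1.2 libraries of each line, and no fold is given for it between the siRNAs.

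The control siRNAs were compared in the same way. No member differed between siControl.1 and siControl.2 at an adjusted p under 0.05, beside 2.36% of genes in RT112 and 0.0672% in SCaBER, and none reached an unadjusted p under 0.05 in edgeR. DESeq2 and limma called none either. PYCARD was 0.32 (SE 0.37) higher on the log2 scale under siControl.1 in RT112 and 0.60 (SE 0.43) in SCaBER, and TLR5 was 1.34 (SE 1.52) and 1.34 (SE 1.48) higher. For TLR5 in both lines and PYCARD in SCaBER, both siControl.1 libraries lay above both siControl.2 libraries, a placement shared by 19.6% of all tested genes in RT112 and 19.7% in SCaBER. In RT112 CASP4 and IL18 were placed in the same way, and NLRP1, GSDMD and GSDME the opposite way, as were 27.1% of genes. IL18 was 0.84 lower (log2 difference -0.84, SE 0.51) under siControl.1 in SCaBER, and CASP4 was 0.30 (SE 0.17) higher in RT112.

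Under control siRNA 6 of the 10 genes differed between the lines at an adjusted p under 0.05, beside 43.4% of all genes tested. Per transcript length (TPM), CASP4 and PYCARD led in RT112, at 33.0 ± 2.1 and 29.8 ± 4.5 (SD, n = 4), and their ranges overlapped. They were followed by GSDMB at 5.03 ± 1.90, IL18 at 3.56 ± 1.12, GSDMD at 2.71 ± 0.78 and AIM2 at 1.77 ± 1.70, while CASP1, TLR5, GSDME and NLRP1 did not pass 1.13 TPM in any control library. In SCaBER, AIM2 led at 65.9 ± 21.9 TPM, followed by PYCARD at 44.9 ± 18.1 and CASP4 at 20.3 ± 4.4. AIM2 and PYCARD overlapped in range, whereas CASP4 lay below the lowest value of both. GSDME and IL18 stood at 9.46 ± 2.72 and 9.22 ± 3.01 TPM, CASP1, NLRP1 and GSDMB between 4.22 and 5.67 TPM on average, and TLR5 and GSDMD at 1.34 ± 0.93 and 0.832 ± 0.567 TPM. Since tags come from the 3′ end, division by length lowers long transcripts, so the order across genes is approximate.

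RT112 controls held less AIM2 than SCaBER controls, by a log2 difference of -4.84 (SE 0.55, adjusted p = 4.92e-06), less NLRP1 by -4.12 (SE 0.34, adjusted p = 1.75e-07), less GSDME by -3.95 (SE 0.42, adjusted p = 2.72e-06) and less CASP1 by -2.48 (SE 0.57, adjusted p = 0.0025). They held more CASP4, by 1.11 (SE 0.17, adjusted p = 8.76e-05), and more GSDMD, by 2.07 (SE 0.68, adjusted p = 0.0238). In CPM these 6 genes did not overlap between the 4 control libraries of each line, where 21.2% of all tested genes lay lower in every RT112 library and 20.5% higher. The GSDMD call was lost without RT112 siControl.2 replicate 2, at an adjusted p of 0.0729, with 0.0056 to 0.0729 over all alternatives. The other 5 calls held in all 14 alternatives.

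GSDMB, at 0.65 (SE 0.37, adjusted p = 0.175), and IL18, at -0.96 (SE 0.44, adjusted p = 0.0950), were not called. The log2 difference of PYCARD was -0.17 (SE 0.27) and that of TLR5 -0.62 (SE 0.69), a description with no test. The selection read these control libraries and needed both genes above their FOXA1 siRNA level in each line. IL18 passed only on log2 TPM, at an adjusted p of 0.00589, and ran up to 0.224 over the alternatives. The 6 calls stood beside 43.4% of the 12309 genes tested. Both sensors and GSDME were over 10-fold apart in CPM: the RT112 mean was 3.49% of the SCaBER mean for AIM2, 5.63% for NLRP1 and 6.33% for GSDME.

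**Figure D3:**
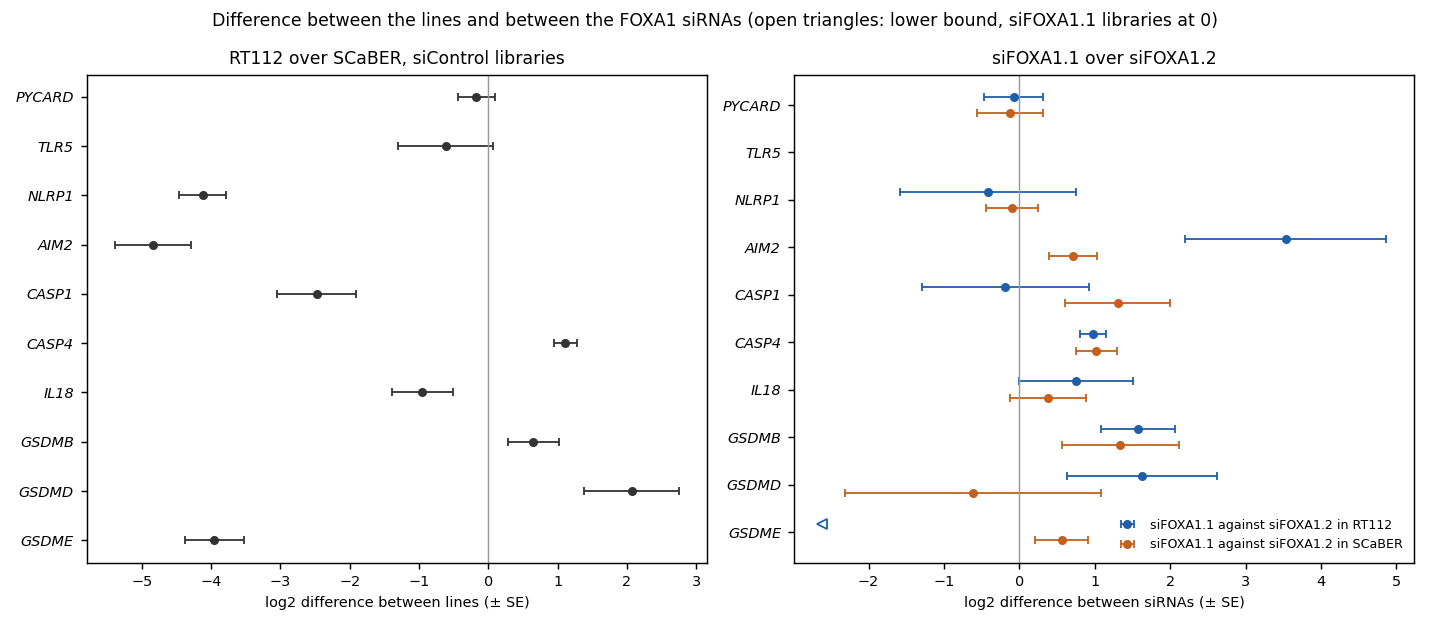
Left, log2 difference between RT112 and SCaBER control libraries for each gene; right, log2 difference between siFOXA1.1 and siFOXA1.2 in each line (blue RT112, orange SCaBER), with bars of 1 SE. The open triangle marks GSDME in RT112, at 0 in both siFOXA1.1 libraries and drawn at its lower bound; TLR5 is left out on the right. PYCARD lies near 0 in both panels, AIM2, NLRP1, GSDME and CASP1 are lower in RT112, and CASP4 differs by 0.98 and 1.02 between the siRNAs.

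The change under each FOXA1 siRNA was then compared between the lines with an interaction term. For PYCARD, chosen because it was lower in both lines, the change in RT112 minus that in SCaBER was 0.14 (SE 0.51) under siFOXA1.1 and 0.11 (SE 0.51) under siFOXA1.2, a description with no test. For CASP4 it was -0.40 (SE 0.29, adjusted p = 0.541) under siFOXA1.1 and for AIM2 1.06 (SE 0.73, adjusted p = 0.520). GSDME was the only member called, with an adjusted p of 0.00365 under siFOXA1.1, beside 3.14% of the 13701 genes tested. It was at 0 in the RT112 siFOXA1.1 libraries, so no size is given for the difference. In SCaBER its siFOXA1.1 libraries lay above every control, the lower at 45.1 CPM against a highest control of 44.1 CPM. Of all tested genes, 29.1% lay below every control under siFOXA1.1 in RT112 and 13.9% above every control in SCaBER. The adjusted p was 0.153 on log2 TPM, the only one of 22 alternatives in which it was above 0.05, the lowest being 1.11e-05. Under siFOXA1.2 no member was called, beside 0.0438% of all genes, and the lowest unadjusted p belonged to CASP1, whose change differed by 2.04 (SE 0.97, adjusted p = 0.821). It was the only member at an unadjusted p under 0.05, and DESeq2 and limma called none.

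Around these 10 genes, 68 further genes of the same pathways were listed, of which 67 were in the table used here: 14 inflammasome sensors and adaptors, 10 inhibitors, 4 caspases of cell death, 6 pore and rupture genes, 10 genes of the IL1 and IL18 axis and 24 Toll-like receptors and their proximal signalling. Of these, 34 were tested in RT112 and 39 in SCaBER. After transfection of RT112 with siFOXA1.1, 4 rose and 3 fell, beside the 32.6% of all genes called. In SCaBER 3 were higher with the same siRNA and none was lower, beside 9.26%. These shares of the list were not above those of all genes. Under siFOXA1.2, 1 rose and 1 fell in RT112, beside 2.04%, and none of 39 was called in SCaBER by edgeR, DESeq2 or limma, with 4 at an unadjusted p under 0.05 in edgeR. The median log2 change of the tested genes under siFOXA1.1 was 0.09 for RT112 and 0.20 for SCaBER, beside -0.01 and 0.01 over all genes.

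Among the RT112 genes that rose under siFOXA1.1, TLR6, a receptor for bacterial lipopeptides, went from 0.302 to 5.19 CPM in the controls to 18.0 to 20.5 CPM (log2 change 2.69, SE 0.61, adjusted p = 0.00217). IFI16, a DNA sensor related to AIM2, rose by 1.36 (SE 0.39, adjusted p = 0.0118) and IL1A, the IL-1 alpha gene, by 2.97 (SE 1.04, adjusted p = 0.0360). TXNIP, which binds thioredoxin and NLRP3, fell from 464.3 to 619.1 CPM to 149.8 to 272.7 CPM (log2 change -1.24, SE 0.16, adjusted p = 1.09e-05). NINJ1, which mediates membrane rupture after pore formation, fell from 43.6 to 61.9 CPM to 19.0 to 28.0 CPM (log2 change -1.06, SE 0.24, adjusted p = 0.00206). TLR6, TXNIP and NINJ1 kept their calls in all 14 alternatives. IFI16 lost it without siControl.1 replicate 2 (0.0518) or siFOXA1.1 replicate 2 (0.259), and IL1A in 4 of 8 fits that left out 1 library, those without replicate 1 of siControl.2 or siFOXA1.1 or replicate 2 of siControl.1 or siFOXA1.2, with adjusted p up to 0.408. On log2 TPM neither was called, and IL1A also lost its call with the replicate block (adjusted p = 0.0640). The count of 7 fell to 4 without siControl.1 replicate 2 or without siFOXA1.1 replicate 2.

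Under siFOXA1.2 in RT112, NEK7, a kinase that licenses NLRP3, rose by 1.06 (SE 0.25, adjusted p = 0.0333) and IL1RN, the IL-1 receptor antagonist, fell (log2 change -1.10, SE 0.26, adjusted p = 0.0357). The NEK7 call was lost in 5 of 8 fits that left out 1 library, those without either siFOXA1.2 library, either siControl.2 library or siControl.1 replicate 2, with adjusted p up to 0.524. The IL1RN call was lost in 6 of 8, those without either siFOXA1.2 library or any control library, with adjusted p up to 0.431. On log2 TPM neither was called. IL1RN also differed between the control siRNAs of RT112, with means of 55.2 CPM under siControl.1 and 19.5 CPM under siControl.2 (log2 difference 1.56, adjusted p = 0.00593), and the siFOXA1.2 libraries at 11.9 and 18.4 CPM were below both siControl.2 libraries.

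In SCaBER under siFOXA1.1, PANX1, a membrane channel that releases ATP, rose from 25.6 to 36.4 CPM to 61.9 to 96.7 CPM (log2 change 1.35, SE 0.26, adjusted p = 0.00493). UNC93B1, which carries nucleic acid-sensing Toll-like receptors to endosomes, rose from 126.7 to 174.4 CPM to 312.4 to 322.5 CPM (1.01, SE 0.18, adjusted p = 0.00239). IRAK4, a kinase downstream of MYD88, rose by 1.29 (SE 0.34, adjusted p = 0.0274). The PANX1 call was lost without siFOXA1.1 replicate 2 (0.0555) and the IRAK4 call in 4 of 8 fits, without siControl.1 replicate 1, siControl.1 replicate 2, siControl.2 replicate 1 or siFOXA1.1 replicate 2, with adjusted p up to 0.229. Without siFOXA1.1 replicate 1 the count of 3 rose to 6. The change under siFOXA1.1 differed between the lines for TXNIP, by -1.86 (SE 0.27, adjusted p = 0.000868), and for UNC93B1, by -1.17 (SE 0.26, adjusted p = 0.0181), the latter at 0.0924 without RT112 siFOXA1.1 replicate 1. None of the 42 genes tested was called for such a difference under siFOXA1.2 by edgeR, DESeq2 or limma, with 7 at an unadjusted p under 0.05 in edgeR.

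**Figure D4:**
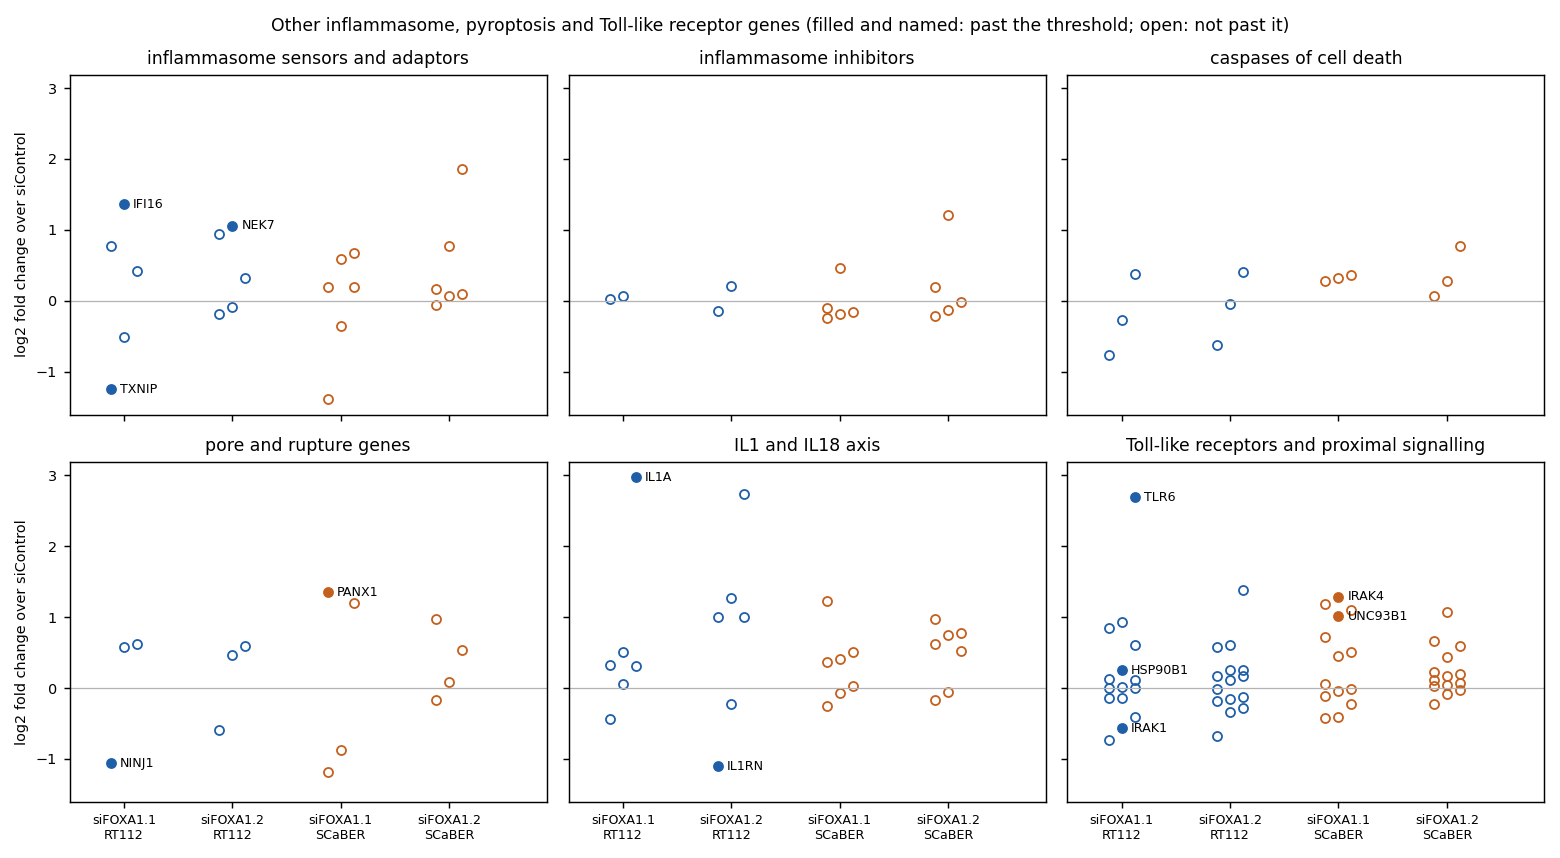
Log2 change of the tested pathway genes, by gene class, under each FOXA1 siRNA in RT112 (blue) and SCaBER (orange) against the controls of the same line; filled, named points passed an adjusted p of 0.05 and open points did not. Among the named points TLR6 and IL1A are highest in RT112 and TXNIP and IL1RN lowest, while the 3 named genes of SCaBER, PANX1, IRAK4 and UNC93B1, all rose under siFOXA1.1.

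Between the control libraries of the lines, 18 of the 38 pathway genes tested differed, 4 higher and 14 lower in RT112, beside 43.4% of all genes, a like share. IL1A, with a log2 difference of -5.04 (SE 0.62, adjusted p = 1.1e-05), IFI16, at -4.75 (SE 0.30, adjusted p = 1.43e-08), IL1B, at -2.79 (SE 0.54, adjusted p = 0.000609), and PANX1, at -1.77 (SE 0.30, adjusted p = 0.000201), were lower in RT112, and TXNIP, at 2.94 (SE 0.21, adjusted p = 5.39e-08), was higher. Both HIN-200 family DNA sensors of the set and the list, AIM2 and IFI16, were thus lower in RT112 than in SCaBER.

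Across the 16 libraries, with log2 CPM centred within each line, the 45 pairs of members had correlations from -0.64 to 0.75 with a median of -0.00081, and 22 were above 0. The members did not vary as a block. The 3 genes whose levels were most like PYCARD among 9701 genes were GPD1L (Pearson r = 0.935), H2AFZ (r = 0.905) and HMGB1 (r = 0.890), where the median over all genes was 0.0909. GPD1L, a glycerol-3-phosphate dehydrogenase-like enzyme, was at 54.2 to 75.4 CPM in the RT112 controls and 16.8 to 28.3 CPM under FOXA1 siRNA, and at 3.66 to 10.1 and 1.52 to 3.33 CPM in SCaBER. HMGB1, a chromatin protein, averaged 845.2 CPM in the controls and 386.1 CPM under FOXA1 siRNA in RT112, and 515.3 and 249.2 CPM in SCaBER. H2AFZ, a histone variant gene, and HMGB1 have near-identical processed copies, so the counting of their tags is uncertain. The genes most like TLR5 were TXNDC16 (r = 0.886), IMMP1L (r = 0.852) and TST (r = 0.844), with a median over all genes of 0.0727. These correlations share libraries, siRNAs and depth, carry no test, and include the differences that selected PYCARD and TLR5.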

How the data were processed

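QuantSeq 3′ mRNA libraries of RT112 and SCaBER, 8 per line, were analysed from the deposited gene tables. The authors trimmed reads with TrimGalore 0.6.2 (minimum quality 20, minimum length 10), aligned them to hg38 with STAR 2.6.1a and counted them on GENCODE 29, as the submitters' processing notes name them; the deposited counts are raw and the deposited TPM are the authors' length-scaled values. The study's methods name hg19, and no coordinate was taken from the count table. Gene positions and promoter windows came from RefSeq tables (GRCh38.p14); all 10 genes matched a position by symbol, and windows of PYCARD, TLR5, CASP4, AIM2 and GSDME were used.

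Counts were fitted per line with edgeR 4.0.16 (R 4.3.3), TMM scaling, filterByExpr and the quasi-likelihood test, all 4 siRNAs in 1 model, with Benjamini-Hochberg adjustment over all genes tested. The SE is the log2 fold change over the square root of F. Lines were compared in models over 12309 genes under control siRNA and 13701 genes for the interaction. Alternatives were library totals alone, RLE factors, DESeq2 1.42.0, no filter, limma 3.58.1 on log2(TPM + 1), the experiment batch as a replicate block and leaving out each library. The labels call the replicate number an experiment batch, so numbers pair libraries. Same-numbered libraries deviated together weakly, with correlations from -0.011 to 0.036 over 6 pairs in RT112 and 0.015 to 0.244 in SCaBER. Replicates differed by more than sampling noise (chi-square per gene 8.69 to 39.7). Nothing in the labels says that they came from separate cultures, so p-values measure the spread between these samples, which may be technical.

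Members, pathway lists and tests were chosen with earlier results of these data known. All members are described; of the pathway list, up to 5 genes per comparison were named, with the largest absolute log2 fold change among those called and with a mean of at least 20 counts. Likeness was ranked by Pearson r of log2 CPM centred by line. Scripts were tested on simulated data. A leukocyte marker of the list is not reported here.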

Additional observations from a re-analysis of the deposited data

Results flagged for a closer look

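Each gene was checked in each line under control and under FOXA1 siRNA, in 40 sets of 4 libraries. In 7 sets the gap between 1 library and its nearest neighbour, as a share of the set's range, passed Dixon's 95% critical value. Chance gives about 1 in 20 for 4 draws from 1 normal population. Each set joins different siRNAs, so that rate need not hold here and nothing is read from the number of sets. PYCARD was high in siControl.1 replicate 2 of both lines, at 32.0 CPM in RT112, where the other controls lay at 22.8 to 23.4, and at 45.0 CPM in SCaBER, where they lay at 21.6 to 25.1. TLR5 was detected under FOXA1 siRNA only in siFOXA1.2 replicate 1, at 1.60 CPM in RT112 and 2.62 CPM in SCaBER. With the other 3 libraries at 0, any count there passes that value by construction. In RT112 siFOXA1.1 replicate 2, CASP1 was low at 2.21 CPM and IL18 high at 10.6 CPM, against 3.82 to 4.10 and 3.95 to 5.05 CPM in the other FOXA1 siRNA libraries. NLRP1 was low in SCaBER siControl.2 replicate 2, at 21.4 CPM against 29.3 to 30.0 CPM.

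The change of GSDME under siFOXA1.1 differed between the lines by edgeR's interaction term (adjusted p = 0.00365). Both RT112 libraries were at 0, and 29.1% of all tested genes lay below every control there. Both SCaBER libraries lay above every control, as for 13.9% of all tested genes, the lower at 45.1 CPM against a highest control of 44.1 CPM.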

How the results depend on the processing

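The numbers of members called moved as follows. Under siFOXA1.1 in RT112, limma on log2 TPM called 2 in place of 4, and 1 to 4 were called when 1 library was left out; the pathway genes went from 7 to 4 on log2 TPM and 4 to 6. Under siFOXA1.2 in RT112, DESeq2 called 1 member in place of 0 and leaving out a library gave 0 to 1; the 2 pathway genes became 0 on log2 TPM and 0 to 2. In the pooled comparison DESeq2 called 1 in place of 0 in each line, and 3 were called in SCaBER without the filter. Under siFOXA1.1 in SCaBER, 1 to 3 members and 2 to 6 pathway genes were called in place of 3 and 3 when 1 library was left out. Between the FOXA1 siRNAs in SCaBER, 0 in place of 1 were called with library totals or limma, and 0 to 1 when 1 library was left out. Limma called 0 in place of 1 for the line difference under siFOXA1.1.

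PYCARD's small differences changed sign: between the FOXA1 siRNAs they ran from -0.44 to 0.20 in RT112 and -0.56 to 0.21 in SCaBER, between the lines from -0.32 to 0.10, and in the interaction from -0.22 to 0.58 under siFOXA1.1 (-0.10 with limma) and -0.11 to 0.36 under siFOXA1.2, when 1 library was left out. GSDMD between the FOXA1 siRNAs in RT112 ran from -1.06 to 2.61.

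With the replicate block, 3 members were called under siFOXA1.1 in RT112 in place of 4. Paired fits kept the members' other counts, and of the pathway genes named IL1A lost its call. Counts over all genes moved by over 1.5 times under siFOXA1.2 in RT112, from 245 to 430 with DESeq2, 376 without the filter and 72 with limma, in the pooled RT112 comparison from 13 to 5 with library totals, 168 with DESeq2, 123 without the filter, 0 with the block and 4 with limma, and between the RT112 controls from 283 to 476, 449 and 78 with DESeq2, no filter and limma. In SCaBER they moved under siFOXA1.2 from 5 to 40, 42 and 1 by those settings, in the pooled comparison from 1 to 37, 213 and 2, with 0 under the block, between the FOXA1 siRNAs from 577 to 966 with DESeq2 and 276 with limma, and between the controls from 8 to 75, 91 and 0, with 35 under the block. For the line differences they moved from 430 to 777 with DESeq2 and 732 without the filter under siFOXA1.1, and from 6 to 32, 66 and 0, with 12 under the block, under siFOXA1.2. Library totals alone put the median of all genes under siFOXA1.1 in RT112 at -0.14 on the log2 scale and 36.9% of calls upward, against 47.9% with TMM; the shares were 36.4% against 46.4% between the FOXA1 siRNAs, 40.1% against 52.7% between the controls of RT112 and 30.6% against 41.6% for the line difference under siFOXA1.1. Limma on log2 TPM put that median at -0.29 and these shares at 21.3%, 22.3%, 42.3% and 14.4%, and the share between the lines under control siRNA at 28.6% against 48.9%, under siFOXA1.2 in RT112 at 31.9% against 51.02% and under siFOXA1.1 in SCaBER at 35.2% against 48.3%. With 1 library left out, counts over all genes ran in RT112 from 64 to 380 under siFOXA1.2, 62 to 454 between the controls and 0 to 4 pooled, and in SCaBER from 526 to 1371 under siFOXA1.1, 0 to 21 under siFOXA1.2, 108 to 1036 between the FOXA1 siRNAs, 0 to 60 between the controls and 0 to 3 pooled; for the line differences they ran from 239 to 733 and 0 to 11. The causes were not tested. At these depths genes such as TLR5, GSDME, AIM2 and CASP1 in RT112 rest on few counts a library.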
